A study of Mus musculus with 8 samples.

Results

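The 10 genes described here encode mRNA decay factors that act beside or after the CCR4-NOT deadenylase: the decapping factors Dcp1a, Dcp1b, Dcp2, Edc3, Edc4 and Ddx6, the exonuclease Xrn1, the PAN2-PAN3 deadenylase genes Pan2 and Pan3, and the poly(A)-specific ribonuclease gene Parn. They were chosen by gene symbol, and all 10 were found among 23235 symbols; all 10 were also among the 15899 genes that exceeded 1 FPKM somewhere and were tested. RNA-seq was performed on spermatocytes sorted from six-week-old C57BL/6 males of 2 genotypes at 2 stages, with 2 libraries in each of 4 groups. LZ stands for leptotene and zygotene cells, and PD for pachytene and diplotene cells. The design asks how loss of CNOT4, a regulatory subunit of CCR4-NOT, changes the spermatocyte transcriptome.

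The WT LZ and WT PD groups carry no deletion. The Cnot4-null LZ and Cnot4-null PD groups come from Cnot4 fl/fl;Stra8-Cre males, in which the Cre is driven by the promoter of a gene that is switched on in germ cells before meiosis, and which removes exon 2 of Cnot4 and shifts the reading frame. No other treatment was given. Cells were collected by fluorescence-activated sorting after Hoechst and propidium iodide staining. The methods call the 2 libraries of each group biological replicates, but neither they nor the labels say whether these come from separate animals, so the p-values measure the spread between these libraries, part of which may be technical.

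Cnot4, the targeted gene, had FPKM of 36.0 and 34.9 (WT) and 43.2 and 34.6 (Cnot4-null) at LZ, and 76.6 and 73.1 (WT) and 65.9 and 53.5 (Cnot4-null) at PD. The level was not called different between genotypes at either stage (limma adjusted p = 1 at LZ and 0.192 at PD). A value for the whole gene cannot see the loss of a single exon, so these levels check neither genotype label.

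The Cnot4-null PD libraries stood apart from the other 6 in their marker genes. The 8 Leydig cell markers, led by Insl3 in all 8 libraries, summed to 17.2 and 9.89 FPKM at LZ and 116 and 7.07 at PD in WT, and 10.8 and 19.0 at LZ and 10082 and 22306 at PD in Cnot4-null. Insl3, a hormone of Leydig cells, which are not germ cells, accounted for 9669 and 21608 FPKM of the last pair. Between 2 and 5 Leydig markers were at 0 in WT LZ, Cnot4-null LZ and WT PD replicate 2, with Lhcgr and Hsd17b3 at 0 in each of those 5 libraries, and no Leydig marker was at 0 in WT PD replicate 1 or in Cnot4-null PD.

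Spermatid markers, led by protamine and transition protein genes, showed the same excess. These 8 genes summed to 1838 and 1530 FPKM (WT) and 4043 and 714 (Cnot4-null) at LZ, and 424 and 264 (WT) and 15868 and 7203 (Cnot4-null) at PD, with Prm1 most abundant at 7592 and 2949 FPKM in the last pair. The 8 peritubular and endothelial markers summed to between 2.61 and 6.14 FPKM in the other 6 libraries and to 82.2 and 340 in Cnot4-null PD, where Acta2 was most abundant at 42.8 and 209. Macrophage markers were uneven between replicates: they summed to 38.0 and 0.915 at LZ and 3.003 and 1.69 at PD in WT, and 22.4 and 2.62 at LZ and 42.3 and 190 at PD in Cnot4-null, where Cd74 led and no gene was at 0; in WT LZ replicate 2, 7 of the 8 were at 0.

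The 7 Sertoli cell markers found summed to 65.7 and 58.9 FPKM (WT) and 6.78 and 10.1 (Cnot4-null) at LZ, and 8.83 and 16.5 (WT) and 99.9 and 205 (Cnot4-null) at PD. Clu, which other cells also express, made up most of each sum. Of the other genes in this list, Amh was listed at 0 in 7 libraries and Fshr in 7. Gata4 (1.90 and 6.52 FPKM) and Wt1 (0.967 and 2.23) were called higher in Cnot4-null PD than in WT PD, as Clu was. Wt1 was also at 1.56 and 1.73 in WT LZ. Sox9 (0.590 and 0.384 FPKM in Cnot4-null PD) and Cldn11 (1.86 and 0.113) were not called (limma adjusted p = 0.291 and 0.664). How much RNA of Sertoli cells these levels reflect was not tested.

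Germ cell markers of earlier stages were also higher in Cnot4-null PD than in WT PD. The 8 spermatogonial markers summed to 1107 and 1103 FPKM at LZ and 23.6 and 17.1 at PD in WT, and 785 and 979 at LZ and 485 and 580 at PD in Cnot4-null, where Uchl1 was most abundant. The 8 leptotene and zygotene markers summed to 656 and 625 FPKM (WT) and 1052 and 687 (Cnot4-null) at LZ, and 94.3 and 88.9 (WT) and 343 and 266 (Cnot4-null) at PD, where Stra8 led at 228 and 149. The pachytene and diplotene markers, led by Ldhc at PD, had lower sums in Cnot4-null PD than in WT PD, though Ldhc itself was not called (limma adjusted p = 0.0568): 233 and 339 at LZ and 12013 and 11138 at PD in WT, and 252 and 94.8 at LZ and 5500 and 1906 at PD in Cnot4-null. Markers of meiotic prophase as a whole summed to 2602 and 3049 FPKM (WT) and 4446 and 2918 (Cnot4-null) at LZ, and 2900 and 3054 (WT) and 1847 and 1282 (Cnot4-null) at PD, with no gene of that list at 0.

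At PD, limma called 8 of 8 spermatogonial, 8 of 8 spermatid, 8 of 8 Leydig, 7 of 7 tested peritubular and endothelial, 6 of 8 leptotene and zygotene, 5 of 8 macrophage and 3 of 5 tested Sertoli markers higher in Cnot4-null than in WT, where 41.6% of all tested genes were called higher. It called 5 of 8 meiotic prophase, 2 of 8 pachytene and diplotene and 1 of 8 leptotene and zygotene markers lower, where 11.5% of all tested genes were, and 1 of 8 meiotic prophase markers higher. For the calls of the 10 genes, and for the counts of 54 other decay genes, comparisons that use the Cnot4-null PD libraries are therefore also described without each of them; single other genes and correlations are mostly given over all libraries, and the part of these markers in the results was not tested. The study describes a check of the sorted cells by SYCP3 and pH2AX staining, which was not analysed here. In such bulk samples, fewer cells of a type and less RNA per cell cannot be told apart.

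**Figure D1:**
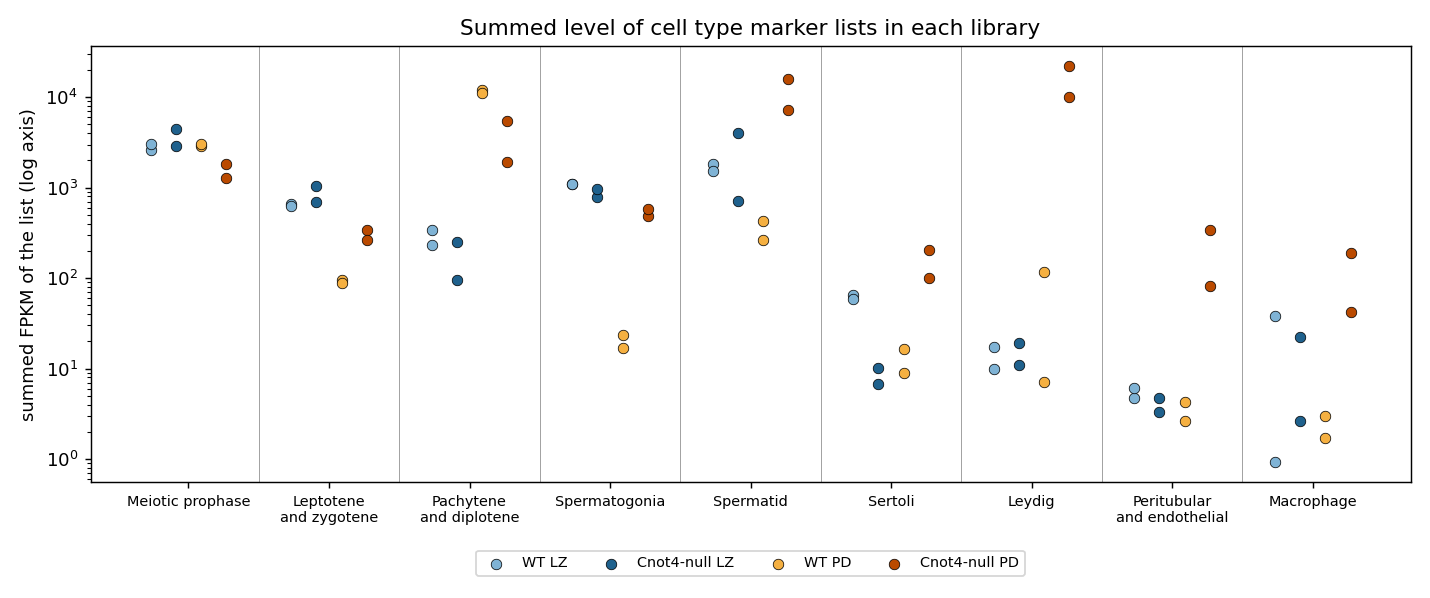
Summed FPKM of 9 marker lists in each of the 8 libraries, on a log axis, with 2 dots per group. The Cnot4-null PD dots lie highest for the spermatid, Sertoli, Leydig, peritubular and macrophage lists, between the LZ and WT PD dots for the spermatogonial and leptotene and zygotene lists, and below WT PD for the pachytene and diplotene list.

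As background, cytoplasmic mRNA decay usually starts with shortening of the poly(A) tail, by PAN2-PAN3 and CCR4-NOT, after which the cap is removed and the body of the message is degraded from the 5′ end by XRN1 or from the 3′ end by the RNA exosome. DCP2 is the enzyme that hydrolyses the cap; DCP1 proteins, EDC3, EDC4 and the helicase DDX6 activate it or hold it in P-bodies. Spermatocytes store and clear large numbers of transcripts as meiosis proceeds, and PARN is a separate deadenylase that also trims the 3′ ends of small noncoding RNAs.

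Dcp2, the catalytic subunit of decapping, was high at LZ and low at PD. Its FPKM was 9.57 and 8.32 at LZ and 1.78 and 1.52 at PD in WT, and 9.34 and 9.54 at LZ and 4.23 and 3.20 at PD in Cnot4-null. All 4 LZ libraries lay above all 4 PD libraries, and both Cnot4-null PD libraries lay above both WT PD libraries. On log2(FPKM + 1), a scale that understates changes of low values, Dcp2 fell by 1.91 ± 0.24 (SE) from LZ to PD in WT (limma adjusted p = 0.000405) and by 1.16 ± 0.24 in Cnot4-null (limma adjusted p = 0.00756).

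Dcp1a and Dcp1b encode alternative partners of DCP2, and of the pair only Dcp1b was called between stages. Dcp1b was at 4.81 and 4.97 FPKM (WT) and 4.12 and 3.36 (Cnot4-null) at LZ, and 21.7 and 24.2 (WT) and 17.0 and 12.4 (Cnot4-null) at PD. Every PD library exceeded every LZ library, by 4.70-fold in group means in WT and 3.93-fold in Cnot4-null; the log2 changes were 2.02 ± 0.24 (limma adjusted p = 0.000298) and 1.72 ± 0.24 (limma adjusted p = 0.00159). Dcp1a was at 4.66 and 4.08 FPKM at LZ and 2.39 and 1.93 at PD in WT, and 5.66 and 6.09 at LZ and 2.87 and 6.88 at PD in Cnot4-null. Both WT PD values were below both WT LZ values, and the Cnot4-null PD replicates differed from each other more than any pair of groups did in the mean. The WT change of −0.77 ± 0.36 did not pass the test (limma adjusted p = 0.107).

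The scaffold and enhancer genes showed smaller differences. Edc4, the large scaffold of the decapping complex, was at 18.01 and 14.3 FPKM (WT) and 15.3 and 15.0 (Cnot4-null) at LZ, and 28.3 and 21.98 (WT) and 22.4 and 19.4 (Cnot4-null) at PD. All 4 PD libraries were above all 4 LZ libraries, while the genotypes overlapped at PD. Edc3, another DCP2 activator, was at 16.8 and 12.1 FPKM at LZ and 8.0 and 8.22 at PD in WT, and 14.3 and 10.8 at LZ and 7.61 and 7.65 at PD in Cnot4-null, so that its PD libraries were all below its LZ libraries. From LZ to PD in WT, Edc4 rose by 0.61 ± 0.22 on the log2 scale (limma adjusted p = 0.0493) and Edc3 fell by 0.74 ± 0.25 (limma adjusted p = 0.0350). Ddx6, the P-body helicase, was at 17.0 and 12.8 FPKM (WT) and 24.6 and 16.0 (Cnot4-null) at LZ, and 11.5 and 10.9 (WT) and 12.8 and 12.2 (Cnot4-null) at PD. Its WT libraries at PD were lower than at LZ, but the change was not called (−0.37 ± 0.26, limma adjusted p = 0.275).

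**Figure D2:**
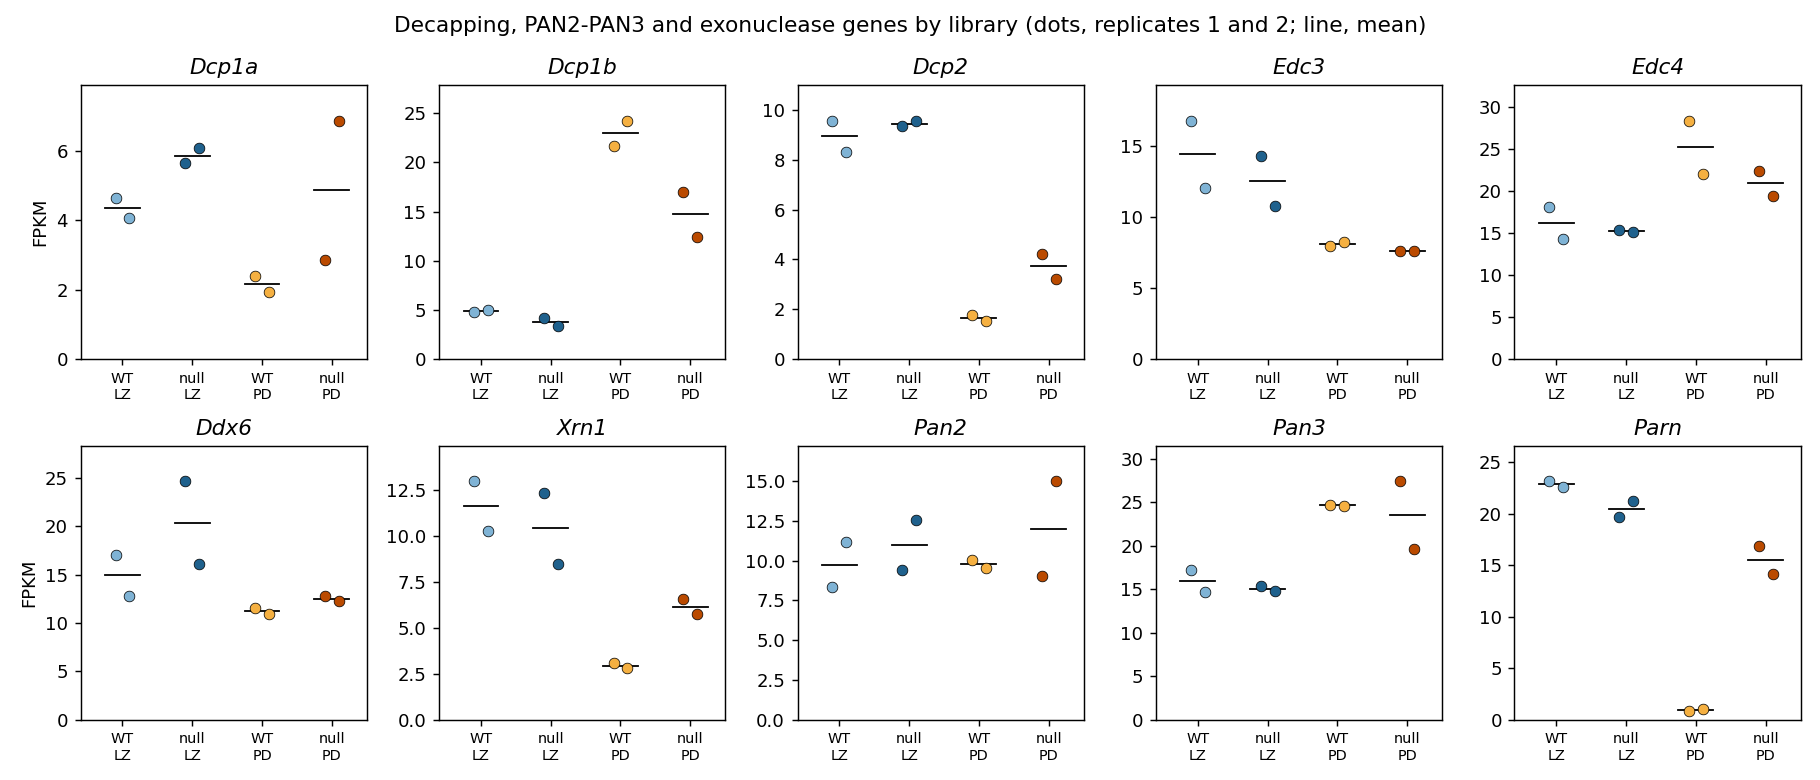
FPKM of each of the 10 genes in each library, with a line at the mean of each group's 2 libraries; every vertical axis starts at 0. Dcp1b is higher at PD in both genotypes, whereas Parn is near 1 FPKM in WT PD and between 14.2 and 23.1 in the other 6 libraries.

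Xrn1 encodes the exonuclease that degrades decapped mRNA. Its FPKM was 12.95 and 10.3 at LZ and 3.09 and 2.79 at PD in WT, and 12.3 and 8.45 at LZ and 6.56 and 5.74 at PD in Cnot4-null. LZ and PD did not overlap in either genotype, and the Cnot4-null PD pair lay between WT PD and the LZ libraries. Xrn1 fell by 1.67 ± 0.26 on the log2 scale from LZ to PD in WT (limma adjusted p = 0.00120); in Cnot4-null the change was −0.65 ± 0.26, not called (limma adjusted p = 0.0795).

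Of the PAN2-PAN3 pair, Pan2 encodes the nuclease and Pan3 the subunit that brings it to the poly(A) tail. Pan2 was at 8.33 and 11.2 FPKM (WT) and 9.39 and 12.5 (Cnot4-null) at LZ, and 10.02 and 9.52 (WT) and 9.01 and 15.0 (Cnot4-null) at PD, and these groups overlapped throughout. Pan3 was at 17.2 and 14.7 FPKM at LZ and 24.7 and 24.6 at PD in WT, and 15.3 and 14.8 at LZ and 27.4 and 19.7 at PD in Cnot4-null. Every PD value of Pan3 exceeded every LZ value, but its change of 0.60 ± 0.22 in WT fell just outside the threshold (limma adjusted p = 0.0508), as did 0.59 ± 0.22 in Cnot4-null (limma adjusted p = 0.0632). The Pan2 change in WT was 0.02 ± 0.30, with a 95% interval from −0.69 to 0.72.

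Parn had the largest genotype difference of the 10. It was at 23.1 and 22.6 FPKM (WT) and 19.7 and 21.2 (Cnot4-null) at LZ, and 0.854 and 1.09 (WT) and 16.8 and 14.2 (Cnot4-null) at PD. WT PD stood alone, at 4.25% of the WT LZ mean, while Cnot4-null PD kept 75.8% of the Cnot4-null LZ mean. Parn fell by 3.60 ± 0.21 on the log2 scale from LZ to PD in WT (limma adjusted p = 2.41e-05), against −0.38 ± 0.21 in Cnot4-null (limma adjusted p = 0.172). At PD it was 16.0-fold higher in Cnot4-null than in WT by group means, a log2 change of 3.06 ± 0.21 (limma adjusted p = 0.000155, both libraries of 2 higher). The genotype effect at PD minus that at LZ was 3.22 ± 0.30 (limma adjusted p = 0.00136).

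Both Cnot4-null PD libraries gave the Parn difference when taken singly: the log2 change at PD was 2.95 without Cnot4-null PD replicate 1 and 3.18 without replicate 2. Over all alternatives it ranged from 2.04 to 3.87, with limma adjusted p between 8.14e-05 and 0.0131. Like Parn, all 8 spermatogonial markers and 6 of the 8 leptotene and zygotene markers kept a larger share of their LZ mean at PD in Cnot4-null than in WT. This direction was common: over all tested genes, the genotype effect at PD minus that at LZ had a median of 0.64, and 26.0% were called higher. Among the members, Dcp1a, Dcp2, Xrn1, Edc3, Pan2 and Pan3 kept a larger share too, while Dcp1b, Edc4 and Ddx6 did not. For spermatogonial markers, the WT and Cnot4-null shares were 1.62% and 72.0% for Kit, 2.05% and 71.7% for Uchl1, 1.42% and 79.3% for Sohlh1, 0.898% and 50.2% for Dmrt1, 1.01% and 45.6% for Crabp1, 5.83% and 152% for Zbtb16, 15.2% and 281% for Gfra1, and 63.1% and 119.8% for Nanos3. For leptotene and zygotene markers they were 2.43% and 38.9% for Stra8, 4.98% and 51.3% for Tex19.1, 8.46% and 49.6% for Rec8, 2.94% and 23.6% for Gm960, 1.95% and 10.6% for Prdm9, and 1.05% and 8.31% for Dmc1. The other 2 of that list did not share this: 4930528F23Rik had 32.5% and 31.2%, and Gm1564 had 77.7% and 34.5% and was called lower at PD in Cnot4-null (−1.17 ± 0.27, limma adjusted p = 0.0106). Their part in the Parn result was not tested.

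The bases upstream of the start site were read for Parn and Dcp1b, the members with the largest fall and the largest rise between stages in WT. Promoter sequences from RefSeq (GRCm38.p6, another build than that of the expression files) were found for 8 of 10 genes, not for Dcp2 and Ddx6. The 250 bases before the start site are shown for this pair, 5′ to 3′ on the gene's strand, with a GTTGCC motif of RFX factors in capitals for Dcp1b (chr6:119175003-119175252, + strand) and a TGACG motif of CREB/CREM factors in capitals for Parn (chr16:13668171-13668420, − strand).
Dcp1b: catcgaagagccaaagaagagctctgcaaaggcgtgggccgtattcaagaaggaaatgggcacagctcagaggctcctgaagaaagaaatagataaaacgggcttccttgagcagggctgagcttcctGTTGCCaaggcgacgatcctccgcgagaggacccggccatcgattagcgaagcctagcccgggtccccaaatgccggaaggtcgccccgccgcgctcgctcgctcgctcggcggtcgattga
Parn: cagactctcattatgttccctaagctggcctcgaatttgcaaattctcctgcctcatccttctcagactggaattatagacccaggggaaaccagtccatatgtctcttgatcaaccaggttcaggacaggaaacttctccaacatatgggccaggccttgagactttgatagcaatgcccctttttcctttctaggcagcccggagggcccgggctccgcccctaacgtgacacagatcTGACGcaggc
Over both strands, GTTGCC was found in 1 of these 8 windows, that of Dcp1b, and in 10.4% of 32851 RefSeq promoter windows of the same length; it was added to the search after the sequence had been read. TGACG was found in the windows of Parn and Pan2 and in 17.8% of all windows. AACNG, the core bound by MYB factors, occurred 3 times for Xrn1, 2 times each for Dcp1a, Dcp1b and Edc4, 1 time each for Edc3, Pan2 and Pan3, and 0 times for Parn, and in 74.2% of all windows. These matches are descriptions of the windows, not binding sites.

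Taken by comparison, 6 of the 10 genes were called between WT stages: 2 higher at PD (Dcp1b, Edc4) and 4 lower (Dcp2, Edc3, Parn, Xrn1), where 21.6% of all tested genes were called higher and 36.2% lower. The median log2 change of the 10 was −0.56, against −0.32 over all tested genes. Relative to that median, the 6 changes were 2.34 for Dcp1b, 0.92 for Edc4, −1.59 for Dcp2, −0.43 for Edc3, −3.28 for Parn and −1.35 for Xrn1. The Edc4 and Edc3 calls were the least firm: Edc4 was not called without either WT LZ, either Cnot4-null LZ or either WT PD library, nor by eBayes with no trend or with only the libraries compared, and Edc3 was not called without WT LZ replicate 1 or either WT PD library, nor after quantile normalization or rescaling of libraries to a common median. Over all alternatives, the limma adjusted p ranged from 0.0049 to 0.285 for Edc4 and from 0.0232 to 0.382 for Edc3. Pan3 was called higher as well with no filter, a mean FPKM of at least 5, a pseudocount of 0.1, quantile normalization, rescaling, only the libraries compared or a replicate block, with limma adjusted p over all alternatives between 0.00348 and 0.185. Without either Cnot4-null PD library, Pan3 (higher) and Dcp1a (lower) were called as well, and more genes were called in the whole genome too. Dcp1a was also called with only the libraries compared, where 10182 of 15899 genes were called, against 9190 in the main fit.

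Between Cnot4-null stages, 1 gene was called higher at PD (Dcp1b) and 1 lower (Dcp2), where 27.8% of all tested genes were called higher and 18.2% lower. The medians were −0.35 over the 10 and 0.19 over all genes. Relative to the latter, Dcp1b rose by 1.53 and Dcp2 fell by 1.34. Both were called without Cnot4-null PD replicate 1 and without replicate 2, but Dcp2 was not called with only the libraries compared (limma adjusted p = 0.0613, the highest of a range from 0.00178); Pan3 (higher) was added with a mean FPKM of at least 5, Pan3 and Dcp1a (lower) without replicate 2, and Ddx6 (lower) without Cnot4-null LZ replicate 2. After rescaling to a common median 5 were called, with Ddx6, Edc3 and Xrn1 lower, and after quantile normalization 6, with Parn lower too; that normalization also turned the genome-wide calls from 4423 higher and 2893 lower into 3044 and 4867.

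**Figure D3:**
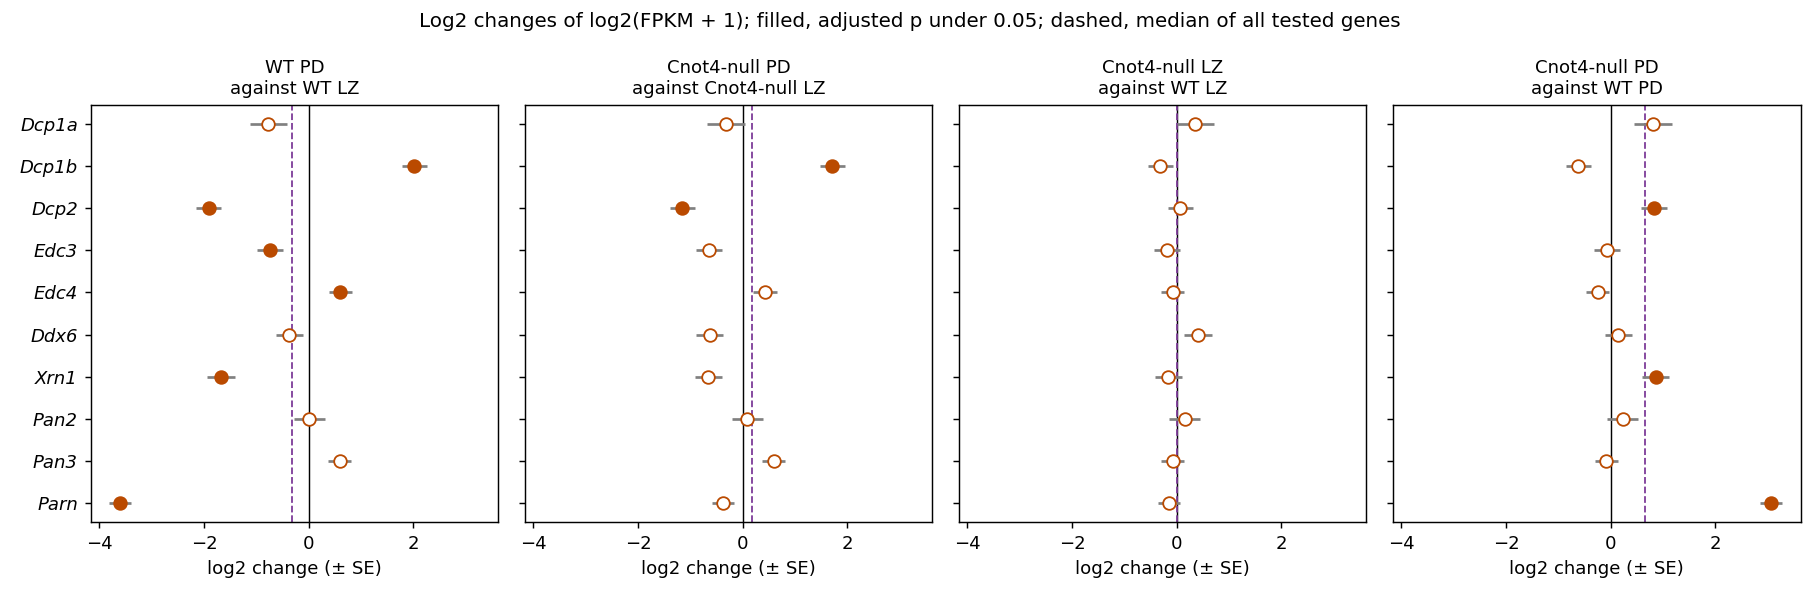
Log2 changes of the 10 genes on log2(FPKM + 1) with their standard errors in 4 comparisons, filled where the limma adjusted p was under 0.05. The dashed line is the median change of all tested genes, which lies at 0.66 for Cnot4-null PD against WT PD; only Parn lies well to its right there, at 3.06.

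At LZ, no member was called between genotypes (0 of 10 by limma, 0 at an unadjusted p under 0.05), where 0.0943% of all tested genes were called. The medians were −0.08 over the 10 and 0.00 over all genes. The 95% intervals of the 10 log2 changes lay between −0.88, the lower bound for Dcp1b, and 1.20, the upper bound for Dcp1a, so that changes within these bounds were not resolved with 2 libraries per group.

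At PD, 3 of the 10 were called higher in Cnot4-null than in WT (Parn, Xrn1, Dcp2) and 0 lower, where 41.6% of all tested genes were called higher and 11.5% lower. The median of all genes was itself shifted by 0.66, and that of the 10 was 0.19. Relative to the shift, Parn was higher by 2.40, whereas Xrn1 and Dcp2, at 0.86 ± 0.26 (limma adjusted p = 0.0294) and 0.83 ± 0.24 (limma adjusted p = 0.0244), were higher by only 0.20 and 0.16. After quantile normalization the direction of both turned, to −0.46 for Xrn1 and −0.65 for Dcp2, neither called. After rescaling they were 0.52 and 0.53, not called either. Parn was called higher under both, at 2.04 and 2.79.

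Of the decapping genes, Dcp1b had its 2 Cnot4-null values at PD under its 2 WT values, with a change of −0.62 ± 0.24 (limma adjusted p = 0.0613), or −1.28 relative to the median gene. It was called lower after quantile normalization (−1.13), after rescaling (−1.03) and without Cnot4-null PD replicate 1 (−0.84), with limma adjusted p over all alternatives between 0.00615 and 0.262. Edc3 also had both Cnot4-null values at PD under both WT values, with a change of −0.08 ± 0.25 (limma adjusted p = 0.803). It was called lower under quantile normalization, and Edc4 was called lower under rescaling. The Xrn1 call was lost without WT PD replicate 1 (limma adjusted p = 0.113) or 2 (0.148) and without Cnot4-null PD replicate 1 (0.0732) or 2 (0.0564), with a range over all alternatives from 0.0241 to 0.201. The Dcp2 call was lost without WT PD replicate 1 (limma adjusted p = 0.0993) or 2 (0.144), with a range from 0.0174 to 0.144. Dcp1a was called higher without Cnot4-null PD replicate 1, at 1.32, but was 0.30 without replicate 2, and its direction turned after quantile normalization (−0.56). Genome-wide, 6619 genes were called higher and 1830 lower, 2982 and 3977 after quantile normalization, and 5522 and 3630 after rescaling. With only the libraries compared, where 5186 genes were called higher and 902 lower, the Xrn1 and Dcp2 calls were lost as well.

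For the difference between the genotype effects at PD and LZ, 1 of the 10 was called higher, Parn, and 0 lower, where 26.0% of all tested genes were called higher and 3.97% lower. The genome-wide calls were 4139 higher and 631 lower, 1594 and 1878 after quantile normalization, and 3279 and 1903 after rescaling. Parn was called in all of these fits and without each library in turn, with log2 differences of 3.10 without Cnot4-null PD replicate 1 and 3.34 without replicate 2. Xrn1 had a difference of 1.02 ± 0.37 (limma adjusted p = 0.0767) and Dcp2 one of 0.75 ± 0.34 (limma adjusted p = 0.131). Without Cnot4-null PD replicate 1, Dcp1a was also called, at 0.96.

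Ratios of a pair of genes within a library depend little on how the library is scaled, apart from the pseudocount. The log2 ratio of Dcp1b to Dcp1a was 0.04 and 0.23 at LZ and 2.74 and 3.11 at PD in WT, and −0.38 and −0.70 at LZ and 2.22 and 0.77 at PD in Cnot4-null. Dcp1b thus made up 50.8% and 54.9% of the summed FPKM of this pair at LZ and 90.1% and 92.6% at PD in WT, and 42.2% and 35.6% at LZ and 85.6% and 64.3% at PD in Cnot4-null. The 4 PD libraries exceeded the 4 LZ libraries by 2.41 in the mean, with an exact two-sided permutation p = 0.0286, the smallest that 4 against 4 can give (0.0429 after Benjamini-Hochberg adjustment over the 3 ratios).

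The ratio of Edc3 to Edc4 was −0.09 and −0.23 (WT) and −0.09 and −0.45 (Cnot4-null) at LZ, and −1.70 and −1.32 (WT) and −1.44 and −1.24 (Cnot4-null) at PD. Edc4 thus exceeded Edc3 in all 8 libraries, by more in each PD library than in each LZ library, with a PD minus LZ difference of −1.21 (exact permutation p = 0.0286, adjusted 0.0429). For Pan3 to Pan2 the ratio was 0.97 and 0.37 at LZ and 1.22 and 1.28 at PD in WT, and 0.65 and 0.22 at LZ and 1.50 and 0.37 at PD in Cnot4-null. The stages overlapped through Cnot4-null PD replicate 2, and the difference of 0.54 did not pass (exact permutation p = 0.114). Within 1 genotype, 2 against 2 libraries have too few arrangements for an exact test to pass, so the ratios were not tested there. Without any 1 of the 4 LZ libraries, the adjusted exact p of both Dcp1b to Dcp1a and Edc3 to Edc4 was 0.0857.

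**Figure D4:**
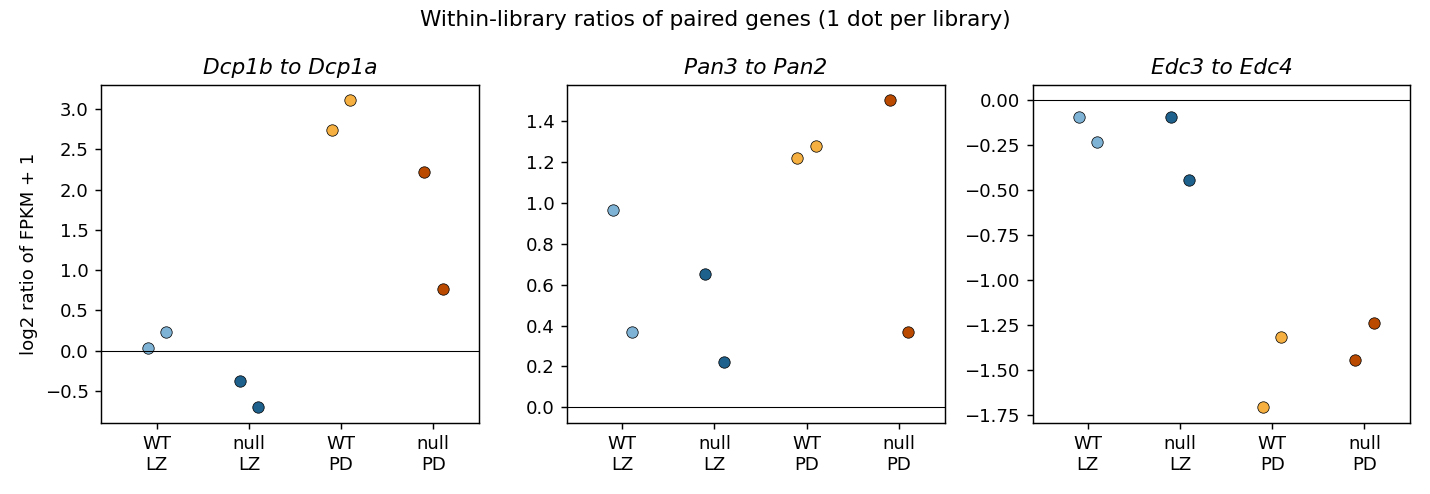
Log2 ratios of FPKM + 1 of paired genes within each library, 1 dot per library. Dcp1b to Dcp1a lies between −0.70 and 0.23 at LZ and between 0.77 and 3.11 at PD; Edc3 to Edc4 drops at PD in both genotypes.

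FPKM are scaled per transcript length, so levels can be ordered between genes. In WT LZ the order of group means was Parn (22.8), Edc4 (16.2), Pan3 (16.0), Ddx6 (14.9), Edc3 (14.4), Xrn1 (11.6), Pan2 (9.75), Dcp2 (8.94), Dcp1b (4.89) and Dcp1a (4.37); neighbours from Edc4 to Dcp2 overlapped in their replicates, and the others did not. Cnot4-null LZ had Parn and Ddx6 first, at 20.4 and 20.3 with overlapping replicates, and Dcp1b last at 3.74. In WT PD the order was Edc4 (25.2), Pan3 (24.6), Dcp1b (23.0), Ddx6 (11.2), Pan2 (9.77), Edc3 (8.11), Xrn1 (2.94), Dcp1a (2.16), Dcp2 (1.65) and Parn (0.971), in which the replicates of Edc4 overlapped those of Pan3 and Dcp1b, and no other neighbours overlapped. Parn was thus first of 10 in WT LZ and last in WT PD. In Cnot4-null PD its rank was 3, at 15.5, its replicates overlapping those of Dcp1b (14.7), after Pan3 (23.5) and Edc4 (20.9). The summed FPKM of the 6 decapping genes changed little, from 70.9 and 56.5 at LZ to 73.7 and 68.8 at PD in WT, and from 73.4 and 60.9 to 66.9 and 61.8 in Cnot4-null.

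Among the other genes of the pathway, 54 in 4 lists, limma called 7 higher and 31 lower in WT PD relative to WT LZ, where 21.6% of all tested genes were called higher and 36.2% lower. Of 16 LSM ring, PAT1 and decapping partner genes, which include other cap-hydrolysing enzymes, 0 rose and 12 fell (median −1.45). Of 10 other exonucleases and deadenylases, 1 rose and 6 fell; of 17 exosome and Ski genes, 4 rose and 8 fell; of 11 CCR4-NOT subunits, 2 rose and 5 fell.

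Lsm14a, which encodes a P-body protein that binds DDX6, was at 75.7 and 93.2 FPKM at LZ but 2.29 and 3.54 at PD in WT, and at 77.8 and 65.0 at LZ and 15.1 and 22.5 at PD in Cnot4-null. Patl1, the bridge between the LSM ring and decapping, was at 22.8 and 18.3 FPKM (WT) and 26.4 and 21.2 (Cnot4-null) at LZ, and 0.669 and 0.613 (WT) and 4.29 and 7.90 (Cnot4-null) at PD. In both, as in Dcp2 and Xrn1, Cnot4-null PD lay between WT PD and the LZ libraries. The WT falls were −4.46 ± 0.27 for Lsm14a (limma adjusted p = 2.75e-05) and −3.71 ± 0.31 for Patl1 (limma adjusted p = 6.75e-05).

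The exosome nuclease genes Dis3 and Dis3l exchanged places between stages in WT, whereas Exosc10 was not called (−0.17, limma adjusted p = 0.527). Dis3, a catalytic subunit of the exosome, was at 59.1 and 52.2 FPKM at LZ and 5.39 and 5.87 at PD in WT, and 68.4 and 53.1 at LZ and 23.5 and 20.2 at PD in Cnot4-null. Its cytoplasmic relative Dis3l was at 1.43 and 4.76 FPKM (WT) and 3.86 and 1.75 (Cnot4-null) at LZ, and 118 and 112 (WT) and 63.5 and 22.3 (Cnot4-null) at PD. Dis3l thus made up 2.36% and 8.36% of the pair in WT LZ, against 95.6% and 95.0% in the WT libraries and 72.9% and 52.4% in the Cnot4-null libraries at PD. In WT, Dis3 fell by 3.09 ± 0.21 (limma adjusted p = 3.47e-05) and Dis3l rose by 4.95 ± 0.58 (limma adjusted p = 0.000287). Exosome core subunits went both ways in WT. Exosc3 and Exosc5 rose, by 3.10 ± 0.44 (limma adjusted p = 0.000698) and 1.73 ± 0.30 (limma adjusted p = 0.00185). Exosc1 (−1.24), Exosc2 (−2.38), Exosc4 (−1.08), Exosc6 (−2.73), Exosc7 (−2.32) and Exosc8 (−1.86) were called lower, and Exosc9 (0.06) was not called.

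**Figure D5:**
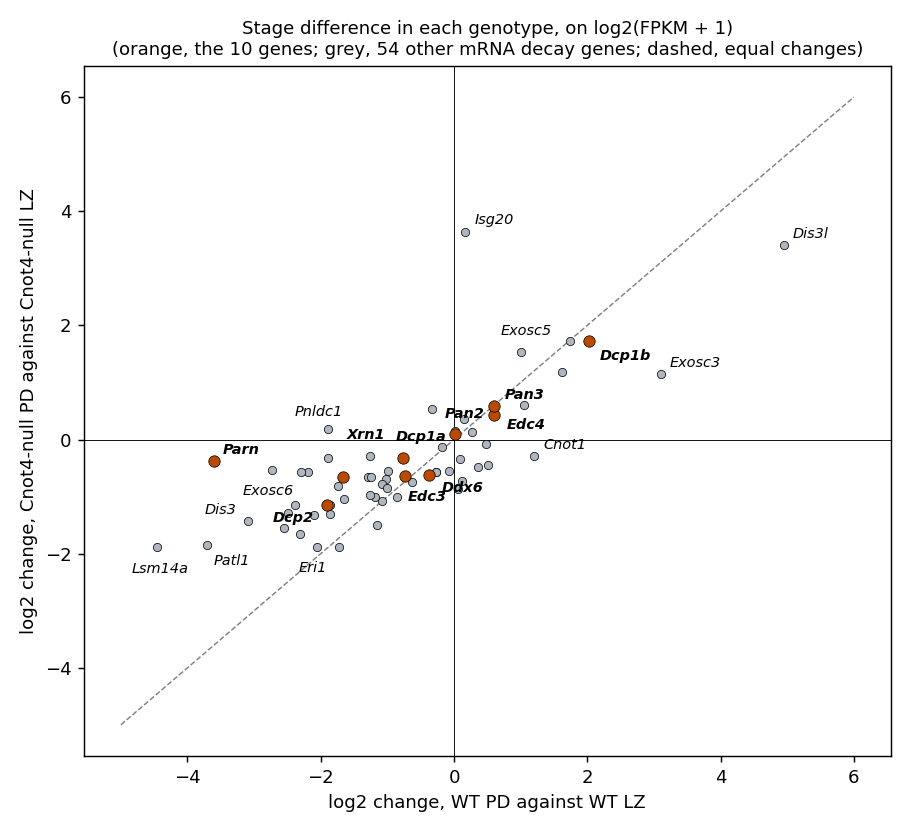
Log2 change from LZ to PD in Cnot4-null (vertical) against that in WT (horizontal), for the 10 genes in orange and 54 other decay genes in grey; points on the dashed line changed equally. Parn lies at −3.60 and −0.38, far above the line, while Dcp1b lies close to it at 2.02 and 1.72.

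In Cnot4-null, 6 of the 54 were called higher and 24 lower at PD than at LZ, where 27.8% of all tested genes were called higher and 18.2% lower. The largest called falls were those of Lsm14a (−1.89 ± 0.27, limma adjusted p = 0.00187), the 3′ exonuclease gene Eri1 (−1.88 ± 0.23, limma adjusted p = 0.00104) and Patl2 (−1.88 ± 0.31, limma adjusted p = 0.00286). The largest rises were those of Isg20, an interferon-inducible exonuclease gene (3.64 ± 0.60, limma adjusted p = 0.00297), Dis3l (3.40 ± 0.58, limma adjusted p = 0.00339) and Exosc5 (1.73 ± 0.30, limma adjusted p = 0.00360). Without Cnot4-null LZ replicate 1 the counts were 5 higher and 12 lower (over all genes 3212 and 1432, against 4423 and 2893 with all libraries), without Cnot4-null PD replicate 1 they were 5 and 30 (4737 and 3019), and without replicate 2 they were 8 and 23 (5134 and 3199).

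Between genotypes at PD, 17 of the 54 were called higher in Cnot4-null and 4 lower, where 41.6% of all tested genes were called higher and 11.5% lower, so that both counts were under the shares over all genes. The median was 0.24 against 0.66 over all genes. The split of calls was 10 and 12 after quantile normalization and 12 and 15 after rescaling; it was 15 and 10 without Cnot4-null PD replicate 1 (over all genes 7078 and 2878), 18 and 3 without replicate 2 (6221 and 1096), 11 and 1 without WT PD replicate 1 (3871 and 470), and 10 and 2 without WT PD replicate 2 (3646 and 411). The largest rises were those of Isg20 (2.65 ± 0.60, limma adjusted p = 0.00963), Lsm14a (2.33 ± 0.27, limma adjusted p = 0.000693) and Patl1 (2.06 ± 0.31, limma adjusted p = 0.00176). At PD, Isg20 had FPKM of 5.77 and 3.24 with Cnot4 intact and 43.3 and 24.4 in the null; its call was lost without WT PD replicate 2 or Cnot4-null PD replicate 1, and that of Patl1 after quantile normalization. The largest called falls were those of Exosc3 (−2.10 ± 0.44, limma adjusted p = 0.00699), Cnot1, the scaffold of CCR4-NOT (−1.20 ± 0.21, limma adjusted p = 0.00318), and Exosc9 (−1.06 ± 0.30, limma adjusted p = 0.0217). Dis3l, at −1.58, was not called (limma adjusted p = 0.0530). Exosc3 was not called without WT PD replicate 1 or with only the libraries compared, and Exosc9 not without either WT PD library or Cnot4-null PD replicate 2, with no filter, or with only the libraries compared.

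Cnot1 was at 30.7 FPKM in each library at LZ and 75.0 and 69.4 at PD in WT, and at 40.8 and 35.01 at LZ and 35.6 and 26.7 at PD in Cnot4-null. At LZ, 0 of the 54 were called by limma. The genotype effect differed between stages for 11 of the 54 in the higher direction and 1 in the lower, where 26.0% of all tested genes were called higher and 3.97% lower; the split was 8 and 4 after quantile normalization and 9 and 7 after rescaling. The largest were Isg20 (3.47 ± 0.85, limma adjusted p = 0.0228), Lsm14a (2.57 ± 0.39, limma adjusted p = 0.00442) and Exosc6 (2.198 ± 0.45, limma adjusted p = 0.0132), and the lower one was Cnot1 (−1.49 ± 0.29, limma adjusted p = 0.0108). Of these 4, only Lsm14a was called without each library in turn; Cnot1 was lost without either WT PD library, Exosc6 without either Cnot4-null LZ library or WT PD replicate 2 and after quantile normalization, and Isg20 without WT LZ replicate 2, Cnot4-null LZ replicate 2 or any 1 PD library and with no filter. The counts were 4 and 0 without WT PD replicate 1 (over all genes 1705 and 72, against 4139 and 631 with all libraries), 3 and 0 without WT PD replicate 2 (1603 and 53), 14 and 7 without Cnot4-null PD replicate 1 (5856 and 2073), and 14 and 2 without replicate 2 (4621 and 657). They were 5 and 1 without Cnot4-null LZ replicate 2 (2110 and 189), 7 and 1 without Cnot4-null LZ replicate 1 (2567 and 143), and 6 and 1 without WT LZ replicate 1 (2413 and 156), so the numbers called in the whole genome moved too.

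Pnldc1, a germline relative of Parn that trims piRNAs, followed a similar course at lower contrast. It was at 17.3 and 22.9 FPKM at LZ and 4.66 in each library at PD in WT, and 10.2 and 12.2 at LZ and 12.1 and 13.5 at PD in Cnot4-null. WT PD was again the lowest group, and the Cnot4-null stages overlapped. It fell by 1.88 from LZ to PD in WT (limma adjusted p = 0.000337) and was 1.28 higher in Cnot4-null than in WT at PD (limma adjusted p = 0.00371; 0.37 and not called after quantile normalization).

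Across the 8 libraries, members were compared by their Pearson r on log2(FPKM + 1), given as a description without a test, since all 8 libraries share the stage difference. Dcp2 and Xrn1 were the most alike pair (r = 0.966), followed by Dcp1b and Pan3 (0.943), Edc4 and Pan3 (0.915) and Xrn1 and Parn (0.912). Dcp1b and Dcp2 were the most unlike (−0.965). Of 9192 other genes with a mean FPKM of at least 5, leaving out Mir, Snor and Scarna entries, the most alike to Parn were Nfe2l2 (r = 0.998) and 9130401M01Rik (0.997), to Dcp1b 1700067G17Rik (0.999) and 4930455B14Rik (0.998), to Dcp2 Wdhd1 (0.997) and Magoh (0.997), and to Xrn1 Ywhah (0.995) and Rcan1 (0.995). For Pan3 they were Gps2 (0.993) and Hadha (0.990), for Edc3 Lman2 (0.983) and Zfp644 (0.981), for Dcp1a 9530068E07Rik (0.963) and Banp (0.962), for Edc4 Fam160b2 (0.961) and Drg2 (0.957), and for Ddx6 Sec63 (0.954) and Peg3as (0.949). Pan2, which varied least between stages, had no close match, with Sf3a2 at 0.856 and Sympk at 0.842.

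In the GENCODE vM1 annotation, on the mm9 build of the files, Parn lies at chr16:13538057-13668263 on the − strand, Dcp1b at chr6:119125270-119171632, Xrn1 at chr9:95855179-95953446 and Dcp1a at chr14:31292751-31340242, all on the + strand. The 10 genes lie on 8 chromosomes, with Edc3, Ddx6 and Xrn1 on chromosome 9. Exons of Edc3 overlap those of Clk3 on the other strand, exons of Edc4 those of Nrn1l on the same strand, and exons of Xrn1 those of the noncoding Gm16794 on the other strand; since no stranded mapping is described, reads from overlaps may count toward either gene, while the other 7 genes have no overlapping exon. The 3′ UTR of the longest annotated coding transcript ranged from 218 nt for Xrn1, 363 nt for Edc4 and 582 nt for Pan2 to 7240 nt for Dcp2, against a median of 905 nt over 14400 tested genes; it was 886 nt for Parn and 1533 nt for Dcp1b. Dcp2 and Xrn1, whose levels were most alike, thus had the longest and the shortest 3′ UTR of the 10.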

How the data were processed

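Gene expression was measured in 8 libraries of sorted mouse spermatocytes, 2 in each of 4 groups defined by genotype and stage. The deposited FPKM values were made by the authors, who mapped reads to mm9 with TopHat2 2.1.1, kept uniquely mapped reads and quantified UCSC gene models with Cufflinks 2.2.1; no scaling between libraries is described. The methods text names Smart-Seq2 for the sorted cells while the labels name Trizol and a TruSeq total RNA kit, and which was used was not determined. The files hold no read counts, and the read totals published for these libraries were not used here.

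Genes above an FPKM of 1 in at least 1 library were analysed as log2(FPKM + 1) with limma 3.58.1 in R 4.3.3, in 1 model with 4 groups and 4 residual degrees of freedom, with moderated variances (eBayes with trend) and Benjamini-Hochberg adjustment over all tested genes within each of 5 comparisons. Genes were called at an adjusted p under 0.05. The model was also tested on data simulated for Cnot4-null PD against WT PD, with 200 of 15899 genes raised. It called 4 of 67 genes raised by a log2 change of 1, 54 of 67 raised by 2 and 65 of 66 raised by 3, beside 9 unchanged genes. The raised genes were drawn from those with a mean log2(FPKM + 1) above 2 in WT PD, which leaves out Parn, Dcp2, Dcp1a and Xrn1. In the data, 8449 genes were called in this comparison, so the adjustment was less strict there. These rates therefore do not carry over to the calls of the 10 genes. Ratios of paired genes were compared between 4 PD and 4 LZ libraries by an exact two-sided permutation test. Tables were handled with pandas 2.3.3 and numpy 2.4.6 under Python 3.11.15, exact tests used scipy 1.17.1, and figures were drawn with matplotlib 3.10.9.

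The members and the lists were chosen with earlier results of these data known. All 10 members were named. Of 54 other decay genes (LSM ring, PAT1 and decapping partners; other exonucleases and deadenylases; RNA exosome and Ski complex; CCR4-NOT subunits), the called genes with the 3 largest rises and the 3 largest falls in each comparison were named, with Pnldc1 as the relative of Parn. Likeness named the 2 genes with the highest Pearson r for each member. The 9 marker lists were meiotic prophase, leptotene and zygotene, pachytene and diplotene, spermatogonia, spermatid, Sertoli, Leydig, peritubular and endothelial, and macrophage. Older symbols were used where the files hold them, such as Emr1 and Gm1564.

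Alternatives were no filter, a mean FPKM of at least 5, a pseudocount of 0.1, quantile normalization, rescaling to the same median, eBayes with no trend, only the libraries compared, a block for the replicate number, an adjusted p under 0.01, and leaving out each library in turn; a group then left with 1 library is assumed to vary like the others. No library was left out of the analysis.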

Additional observations from a re-analysis of the deposited data

Results flagged for a closer look

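The genotype effect on Parn differed between stages by a test of the difference itself. On log2(FPKM + 1), the effect of Cnot4 loss at PD minus that at LZ was 3.22 ± 0.30 (limma adjusted p = 0.00136): the genotype change was 3.06 at PD, where both Cnot4-null libraries were above both WT libraries, and −0.15 at LZ, where both were below. The Cnot4-null PD libraries also held higher levels of spermatogonial, leptotene and zygotene, spermatid and Leydig cell markers than WT PD. The part of those markers in this difference was not tested.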

How the results depend on the processing

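Of 785 log2 changes of the 10 genes under alternatives, 689 kept their direction and side of the threshold, 24 kept their direction but were no longer called, 30 became called and 42 turned direction. Parn was called at PD, between WT stages and for the difference between stages under every alternative run, with log2 changes from 2.04 to 3.87, from −4.43 to −2.89 and from 2.201 to 4.03.

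At PD, the number of members called was 1 at an adjusted p under 0.01 and 1 with only the libraries compared, and ranged from 1 to 4 when single libraries were left out. Between Cnot4-null stages it was 6 after quantile normalization, 5 after rescaling, 1 (Dcp1b, without Dcp2) with only the libraries compared, 3 with a mean FPKM of at least 5 and from 2 to 4 with single libraries left out. For the difference between stages it ranged from 1 to 2 with single libraries left out. Counts over all tested genes moved too. At PD they were 8449 in the main fit, 4811 at an adjusted p under 0.01 and 6088 with only the libraries compared. Between Cnot4-null stages they were 7316 in the main fit and 3955 with only the libraries compared. Quantile normalization gave 7911 there, and rescaling 7489. A mean FPKM of at least 5 gave 5179 of 9348 genes. Leaving out single libraries also moved the genome-wide counts. The cause of these moves was not tested.

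Quantile normalization moved the median gene from 0.66 to −0.046 at PD and from 0.64 to −0.066 for the difference between stages. Between WT stages the median gene went from −0.32 to −0.094, and between Cnot4-null stages it turned, from 0.19 to −0.26. This normalization turned the PD changes of Dcp1a (−0.56), Dcp2 (−0.65), Ddx6 (−0.59), Xrn1 (−0.46) and Pan2 (−0.53). It also turned the WT stage change of Ddx6 (0.016), the Cnot4-null stage change of Pan2 (−0.26), and the differences between stages of Dcp1a (−0.94), Dcp2 (−0.74), Edc3 (−0.91), Xrn1 (−0.33) and Pan2 (−0.71). Rescaling turned the PD changes of Ddx6 (−0.25) and Pan2 (−0.16) and the differences of Edc3 (−0.29) and Pan2 (−0.33).

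With single libraries left out, changes that were not called with all libraries crossed 0 as follows. At PD: Pan2, −0.10 to 0.57, and Pan3, −0.31 to 0.15. At LZ: Dcp2, −0.017 to 0.16; Edc3, −0.41 to 0.042; Edc4, −0.23 to 0.080; Xrn1, −0.41 to 0.091; Pan2, −0.036 to 0.35; and Pan3, −0.18 to 0.033. Between WT stages: Pan2, −0.18 to 0.21. Between Cnot4-null stages: Dcp1a, −0.83 to 0.20, and Pan2, −0.24 to 0.43. For the difference between stages: Dcp1a, −0.063 to 0.96; Edc3, −0.12 to 0.33; Edc4, −0.35 to 0.0009; Ddx6, −0.56 to 0.032; Pan2, −0.26 to 0.41; and Pan3, −0.24 to 0.22. The cause of these was not tested.

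With swaps only within replicate numbers, the ratios kept their differences of 2.41 for Dcp1b to Dcp1a and −1.21 for Edc3 to Edc4, with an exact p = 0.125, the smallest that 16 arrangements can give. With single libraries left out, the differences ranged from 2.11 to 2.89 and from −1.28 to −1.12. The 6 correlations between same-numbered libraries ranged from −0.0651 to 0.194, so the numbers were not taken to pair samples.

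With 2 libraries per group and 4 residual degrees of freedom, small changes were not resolved. Xrn1 and Dcp2 between genotypes at PD, and Edc3, Edc4 and Pan3 between WT stages, lay close to the threshold. The files hold no read counts, and what depth limits was not analysed here. Values are mRNA levels of whole genes in sorted bulk cells, and neither proteins, decay rates nor poly(A) tails were analysed here. The marker levels of the 2 Cnot4-null PD libraries are shared by both, so leaving out either does not remove them.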
